A study of Homo sapiens with 20 samples.

Results

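The keratin genes of simple, single-layered epithelia, KRT7, KRT8, KRT18 and KRT19, were followed through a SPARC dose series in hTCEpi cells. They were chosen by name: each is the entry of the count table that carries 1 of these 4 symbols, out of 60671 gene identifiers in all. hTCEpi is a line of human corneal epithelial cells that grows without limit because telomerase was added to it. The cells were kept in keratinocyte growth medium with 0.15 mM calcium chloride and were given recombinant human SPARC, a secreted matricellular glycoprotein, at 0, 0.05, 0.5 or 5 µg/ml for 24 hours. The groups are called control, SPARC 0.05, SPARC 0.5 and SPARC 5, and each holds 5 samples of total RNA depleted of ribosomal RNA. The labels do not say whether the 5 samples of a group were separate cultures, so each p-value measures the spread between these samples, which may be technical.

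Keratins are the intermediate filament proteins of epithelial cells, and a filament forms only when a type II keratin pairs with a type I keratin. KRT7 and KRT8 encode type II keratins, and KRT18 and KRT19 encode type I keratins. The K8/K18 pair is the founding pair of simple epithelia, K7 and K19 accompany it in ducts, glands and other single-layered linings, and a keratin without a partner is broken down. Stratified epithelia such as the cornea rest instead on K5 and K14 in basal cells and, in the differentiated cornea, on K3 and K12. At the ocular surface K7 and K19 are used as markers of the conjunctiva.

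In short, KRT7 was the member that changed most, and it was the only one called at SPARC 0.5. It rose at SPARC 0.5 and rose further at SPARC 5, KRT18 fell slightly at SPARC 5, KRT8 lay at the edge of the test and KRT19 was near the limit of detection. A gene was called when its adjusted p was under 0.05 in edgeR's quasi-likelihood test with Benjamini-Hochberg adjustment over all 22938 genes tested. At SPARC 5 against control 2 of the 4 members were called, 1 in each direction, where 11.6% of all genes tested were called, 7.04% higher and 4.58% lower. At SPARC 0.5 KRT7 alone of the 4 was called, beside 2.25% of all genes (1.36% higher), and at SPARC 0.05 none of the 4 was called, beside 0.266%. All 4 passed the filter on low counts. In bulk RNA, fewer or more cells that express a keratin and less or more of its RNA per cell cannot be told apart.

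The libraries held 31955358 to 50112286 counts. SPARC 5 replicates 2 and 5 stood apart from the other libraries at the 2 ends of the second principal component, which carried 6.58% of the variance. Calls of the 4 members that changed without both are named. Without both, 2207 genes were called at SPARC 5 against control. Of the 2665 genes called at SPARC 5, 1615 rose and 1050 fell, while scaling by library size alone gave 999 rises and 2191 falls and a correction for GC content and length 1296 and 1254. The label of the cells was checked against marker genes: KRT5, of basal stratified epithelium, had 358397 to 557011 counts a library and PAX6, the eye-field factor kept by corneal epithelium, 213 to 430. KRT12, the defining keratin of the differentiated cornea, had 0 to 4 counts and was at 0 in 14 of 20 libraries. Genes of other cell types are given with the marker sums.

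The genes sit in both keratin clusters of the genome. By GENCODE 29 on GRCh38, KRT7 (ENSG00000135480) lies on chromosome 12 from 52232520 to 52252186 on the plus strand, with 9 exons in its main transcript of 1754 bases. KRT8 (ENSG00000170421) lies on the same chromosome from 52897187 to 52949954 on the minus strand, with 9 exons in a main transcript of 1687 bases. KRT18 (ENSG00000111057), from 52948871 to 52952901 on the plus strand, has 7 exons and 1562 bases. It is the only type I gene within the type II cluster, and it lies back to back with KRT8, with 525 exon bases annotated on both strands. KRT19 (ENSG00000171345) lies in the type I cluster on chromosome 17 from 41523617 to 41528308 on the minus strand, with 6 exons and 1390 bases.

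KRT8 and KRT18 have many processed copies elsewhere in the genome, and how reads were shared between a gene and its copies bears on their counts. The table lists 51 KRT8 pseudogenes and 67 KRT18 pseudogenes, against 5 of KRT19 and 0 of KRT7. For KRT18 the copies are shown in the 90-base coding window, within 1 exon, where the 3 printed pseudogenes differ least from their gene. The window is chr12:52951481-52951570 on the plus strand, read 5′ to 3′. Its matches are chrX:92460318-92460407 (plus) for KRT18P11, chr3:12787927-12788016 (minus) for KRT18P17 and chr5:36885860-36885949 (plus) for KRT18P31. The stretch of KRT19 that matches best crosses an exon border. Capitals mark bases that differ from KRT18.
KRT18: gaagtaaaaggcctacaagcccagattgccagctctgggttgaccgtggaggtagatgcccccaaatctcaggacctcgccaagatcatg
KRT18P11: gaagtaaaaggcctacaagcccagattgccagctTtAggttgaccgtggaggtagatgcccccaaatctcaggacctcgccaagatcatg
KRT18P17: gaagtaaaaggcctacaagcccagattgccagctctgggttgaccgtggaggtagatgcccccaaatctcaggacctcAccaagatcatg
KRT18P31: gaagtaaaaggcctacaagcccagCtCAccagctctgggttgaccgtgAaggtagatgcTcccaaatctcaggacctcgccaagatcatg
KRT19: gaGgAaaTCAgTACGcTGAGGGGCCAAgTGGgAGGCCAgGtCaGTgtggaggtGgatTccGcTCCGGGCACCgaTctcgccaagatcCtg
In this window, chosen for the copies, KRT18P17 differed at 1 of 90 bases, KRT18P11 at 2 and KRT18P31 at 5, and KRT19, the other type I member, at 48. Over 673 such windows of KRT18 the median number of differences was 5 for KRT18P11, 8 for KRT18P17 and 10 for KRT18P31. Over whole main transcripts, 41.3% of the 50-base windows of KRT8 and 47.6% of those of KRT18 occur unchanged in the transcripts of other genes, against 10.8% for KRT7 and 1.79% for KRT19. At 150 bases the share is 0% for KRT8 and KRT19, 4.80% for KRT7 and 11.0% for KRT18. The windows shared at 150 bases belong to KRT7-AS in the case of KRT7 and to KRT8 in that of KRT18, the genes that overlap them on the opposite strand.

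Levels of the 4 members can be compared with each other only per length of transcript. In SPARC 5 libraries KRT7 had 629 ± 10.5 CPM (counts relative to the library total, scaled by trimmed mean of M values) per kilobase of main transcript (mean ± SD, n = 5), against 355 ± 22.3 in control. KRT18 came second with 174 ± 4.13 CPM per kilobase at SPARC 5 and 195 ± 8.11 in control. KRT8 had 5.85 ± 0.595 CPM per kilobase at SPARC 5 and 6.90 ± 0.238 in control. KRT19 had 0.573 ± 0.169 CPM per kilobase at SPARC 5 and 0.580 ± 0.0807 in control. The order KRT7, KRT18, KRT8, KRT19 held in every group, and no neighbours in it overlapped. By the counts of the gene alone, KRT8, the textbook partner of KRT18, was thus far below it per length. KRT8 pseudogenes took 58.2% to 70.1% of the joint counts of gene and pseudogenes, and how reads were shared between them is not given. Among 55 keratin genes ranked by median CPM per kilobase of their longest transcript in control, KRT7 was 4th, KRT18 6th, KRT8 11th and KRT19 15th. The 3 genes above KRT7 were KRT5, KRT17 and KRT6A, keratins of basal and wounded stratified epithelium.

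**Figure D1:**
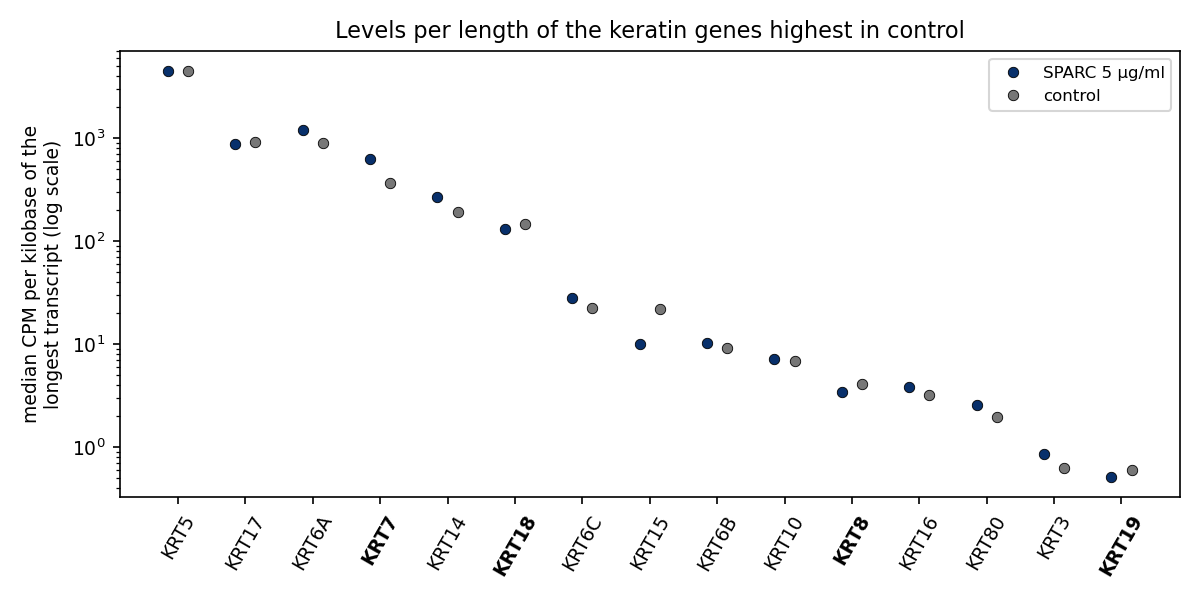
Median CPM per kilobase of the longest transcript (log axis) of the keratin genes highest in control, for SPARC 5 (dark blue, left) and control (grey, right), n = 5 each; the 4 simple keratins are in bold. KRT7 stands 4th and KRT18 6th in both groups. The genes drawn were cut at KRT19, 15th in control among 55 keratin genes.

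KRT7 encodes the type II keratin of ducts and other single-layered linings. Its counts in 1 library were between 19972 and 46687, so counting error was small, 0.497% to 0.674% of the mean. If both mates of a read pair were counted, which is not stated, this and the counting errors of the other members are too small and the counts stand for fewer fragments. Along the dose series it had 556, 647, 651, 641 and 617 CPM in control and 597, 636, 638, 632 and 631 CPM at SPARC 0.05. At SPARC 0.5 it had 691, 736, 727, 717 and 711 CPM, and at SPARC 5 it had 1097, 1107, 1116, 1119 and 1073 CPM. All 5 libraries of SPARC 0.5 lay above every control and every SPARC 0.05 library, and all 5 of SPARC 5 lay above all other libraries. A gap to control alone, in the higher direction, was found in 4.8% of all genes at SPARC 5 and in 1.71% at SPARC 0.5. The share of genes with a gap to several groups at once was not counted. Control and SPARC 0.05 overlapped. Replicate 1 was the lowest library of its group in control, SPARC 0.05 and SPARC 0.5.

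At SPARC 5 KRT7 averaged 1102 ± 18.4 CPM, against 622 ± 39.1 CPM in control, a log2 fold change of 0.82 ± 0.03 (SE) or 1.77-fold (95% interval 1.70 to 1.84). The adjusted p was 3.35e-26, which placed KRT7 18th of all genes tested by p. At SPARC 0.5 it averaged 716 ± 17.1 CPM, a log2 fold change against control of 0.20 ± 0.03 or 1.15-fold (interval 1.11 to 1.20; adjusted p = 5.99e-06), 20th of all genes tested. At SPARC 0.05 it averaged 627 ± 16.7 CPM, and the log2 fold change of 0.01 ± 0.03 was not called (adjusted p = 0.957), with an interval of 0.969-fold to 1.05-fold. Read as dose steps, KRT7 thus changed little over the first step and most over the last.

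The doses were also compared with each other. KRT7 was higher at SPARC 5 than at SPARC 0.5 by 0.62 ± 0.03 (adjusted p = 1.65e-21), a comparison in which 4.8% of all genes were called (3.31% higher, 1.49% lower) and 3.19% did not overlap in the higher direction. It was higher at SPARC 5 than at SPARC 0.05 by 0.81 ± 0.03 (adjusted p = 6.64e-26), where 8.28% of genes were called (5.54% higher, 2.74% lower) and 4.59% did not overlap in the higher direction. Between SPARC 0.5 and SPARC 0.05 it was higher by 0.19 ± 0.03 (adjusted p = 0.000124), 3rd by p of all genes, in a comparison that called 41 genes or 0.179% (0.157% higher) and left 0.876% without overlap in the higher direction. Fitted in edgeR as a trend per dose step, KRT7 rose by 0.27 ± 0.03 a step (adjusted p = 1.16e-05). The steps from control to SPARC 0.05, on to SPARC 0.5 and on to SPARC 5 counted as equal. In this fit 11.1% of all genes were called, 6.81% higher and 4.27% lower. The balance of all calls turned with library sizes only: 562 higher and 660 lower, against 759 and 341, for SPARC 5 over SPARC 0.5, 842 and 1480, against 1271 and 629, for SPARC 5 over SPARC 0.05, and 937 and 2121, against 1561 and 980, for the trend. With GC content and length corrected the first pair of doses gave 679 higher and 513 lower and the second 1200 and 913. KRT7 stayed higher in each of these fits. These comparisons share libraries and are not independent of each other.

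**Figure D2:**
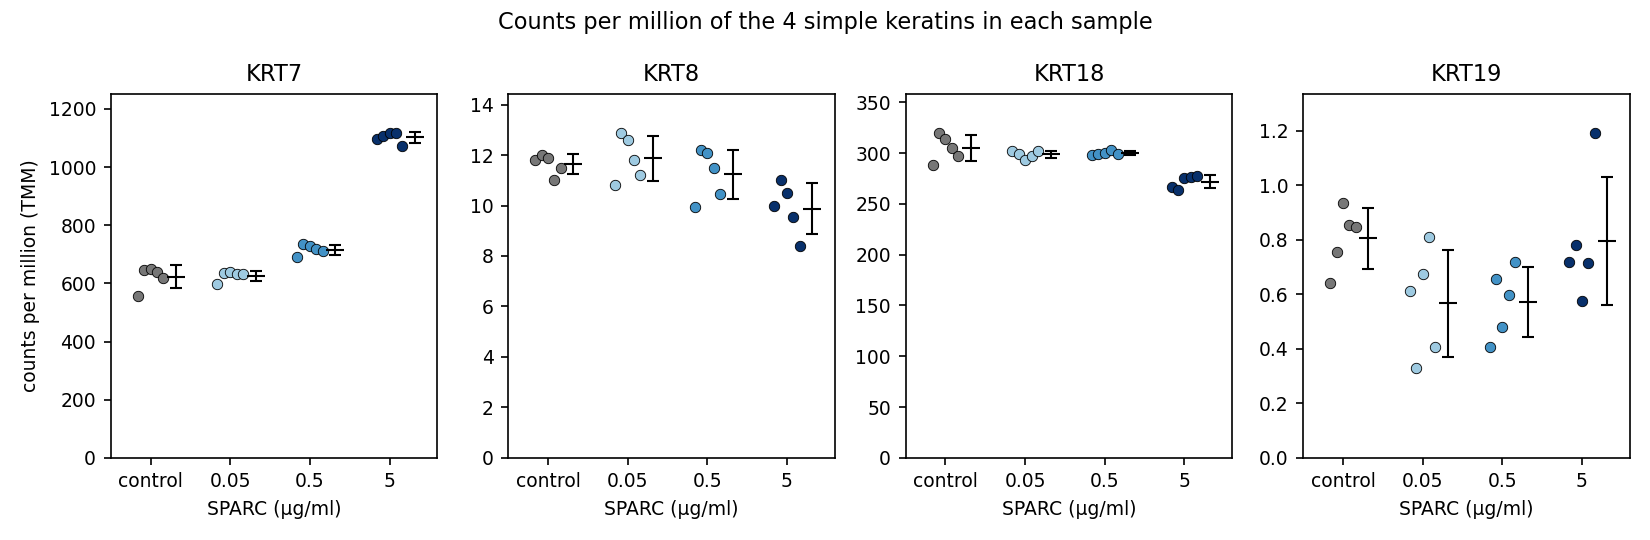
CPM of KRT7, KRT8, KRT18 and KRT19 (1 panel each, axes from 0) in each of the 20 samples by SPARC dose in µg/ml; points are samples, bars beside them mean ± SD of 5. KRT7 runs from 556 to 651 CPM in control and from 1073 to 1119 CPM at SPARC 5, KRT18 is lowest at SPARC 5, and the KRT19 groups overlap.

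KRT18 encodes the type I partner of K8 and was the second most abundant member, with 8440 to 15034 counts a library. Along the dose series it had 288, 320.3, 314, 305 and 297 CPM in control and 302, 299.5, 293, 298 and 302 CPM at SPARC 0.05. At SPARC 0.5 it had 298, 299, 300.3, 303 and 299 CPM, and at SPARC 5 it had 267, 263, 276, 277 and 277 CPM. The 5 SPARC 5 libraries lay below all 15 others, while the lower doses lay within the range of the controls. As with KRT7, control replicate 1 was the lowest of the controls.

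At SPARC 5 KRT18 averaged 272 ± 6.44 CPM, against 305 ± 12.7 CPM in control, a log2 fold change of −0.17 ± 0.02, or 0.892-fold (interval 0.862 to 0.923; adjusted p = 1.72e-07). It was called in the opposite direction to KRT7. The groups did not overlap, which was true of 2.88% of all genes in the lower direction. Against control the log2 fold change was −0.02 ± 0.02 at SPARC 0.5 (adjusted p = 0.750) and −0.03 ± 0.02 at SPARC 0.05 (adjusted p = 0.806), and neither was called. KRT18 was also lower at SPARC 5 than at SPARC 0.5 (−0.14 ± 0.02, adjusted p = 1.77e-05) and than at SPARC 0.05 (−0.14 ± 0.02, adjusted p = 2.34e-05), again without overlap, as were 1.61% and 2.59% of all genes in the lower direction in these comparisons. Between SPARC 0.5 and SPARC 0.05 it differed by 0.01 ± 0.02 and was not called (adjusted p = 0.988).

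KRT8 encodes the type II partner of K18 and had only 302 to 604 counts a library, with counting error of 4.66% to 5.25% of its mean. Along the dose series it had 11.8, 12.0, 11.9, 11.0 and 11.5 CPM in control and 10.8, 12.9, 12.6, 11.8 and 11.2 CPM at SPARC 0.05. At SPARC 0.5 it had 9.95, 12.2, 12.1, 11.5 and 10.5 CPM, and at SPARC 5 it had 9.96, 11.0, 10.5, 9.53 and 8.38 CPM. The SPARC 5 libraries lay just below the controls without overlap, as did 2.88% of all genes in the lower direction, and overlapped with both lower doses. The highest SPARC 5 library had 11.009 CPM and the lowest control 11.02 CPM, a gap well inside the counting error. The highest and the lowest of the SPARC 5 libraries were replicates 2 and 5, the 2 libraries that stand apart on the second principal component, and the part of that component in KRT8 was not tested.

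KRT8 averaged 9.87 ± 1.00 CPM at SPARC 5, against 11.6 ± 0.401 CPM in control, a log2 fold change of −0.24 ± 0.09 (interval −0.41 to −0.07). Its adjusted p was 0.0550, so it was not called, although the fold change was larger in size than that of KRT18. In the authors' deposited table, which holds 16045 genes, the log2 fold change was −0.25 with an adjusted p of 0.0473. DESeq2 also placed it past the threshold (−0.24, adjusted p = 0.0258), and leaving out SPARC 5 replicate 2 did so too (−0.28, adjusted p = 0.0267). With the counts of its own pseudogenes added, the log2 fold change was −0.12 and the adjusted p 0.174. In edgeR it also did not pass with GC and length corrected (−0.21, adjusted p = 0.112). Nor did it pass without both SPARC 5 libraries that stand apart (−0.22, adjusted p = 0.164). Against SPARC 0.05 KRT8 was called at SPARC 5 (−0.27 ± 0.09, adjusted p = 0.0334), a call lost without SPARC 0.05 replicate 2 or 3 or SPARC 5 replicate 4 or 5 (adjusted p 0.0765 to 0.143). The smaller differences at SPARC 0.5 (−0.05 ± 0.08) and SPARC 0.05 (0.03 ± 0.08) against control were not called (adjusted p = 0.873 and 0.960).

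KRT19 encodes the smallest keratin, which lacks most of a tail domain and is found in ducts, conjunctiva and limbal cells. It had 13 to 43 counts a library, and counting error alone was 18.6% to 21.9% of the mean. Its values were 0.641, 0.755, 0.935, 0.852 and 0.845 CPM in control, 0.613, 0.329, 0.675, 0.809 and 0.405 CPM at SPARC 0.05 and 0.408, 0.655, 0.479, 0.596 and 0.719 CPM at SPARC 0.5. At SPARC 5 they were 0.719, 0.780, 0.574, 0.716 and 1.19 CPM. All groups overlapped, and the highest value, in SPARC 5 replicate 5, rests on 43 counts. At SPARC 5 KRT19 averaged 0.796 ± 0.234 CPM, against 0.806 ± 0.112 CPM in control, a log2 fold change of −0.02 ± 0.33 (adjusted p = 0.981). The interval ran from 0.628-fold to 1.55-fold, so a change of the size seen in KRT18 could not have been detected at this depth. At SPARC 0.5 and SPARC 0.05 the log2 fold changes against control were −0.49 ± 0.33 and −0.52 ± 0.33 (adjusted p = 0.563 and 0.692). KRT19 is not among the 16045 genes of the authors' deposited table.

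**Figure D3:**
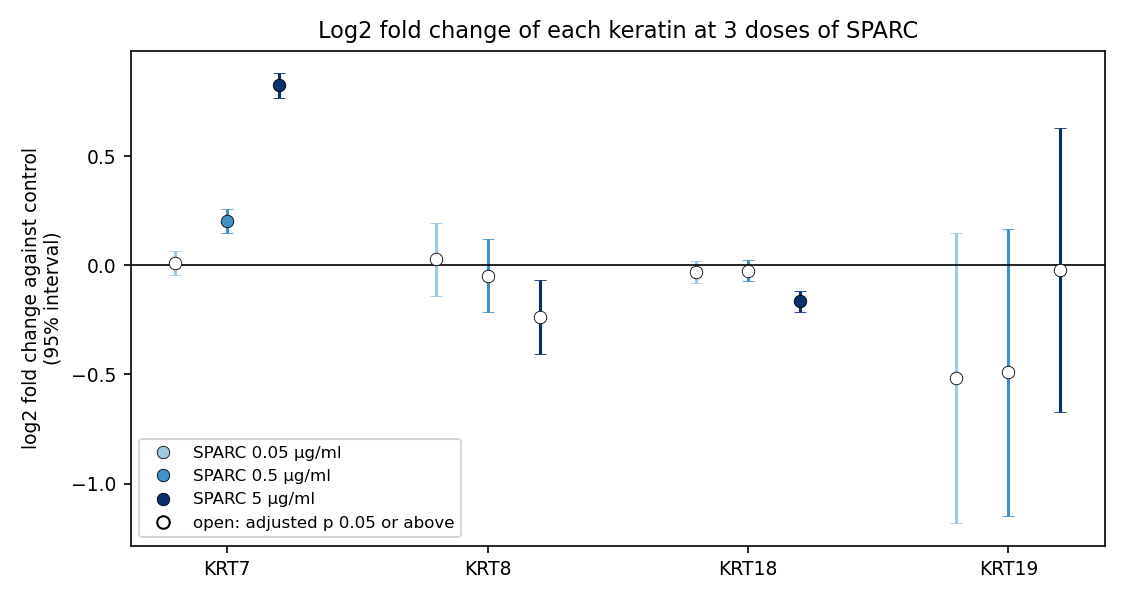
Log2 fold change of each simple keratin against control at SPARC 0.05, 0.5 and 5 µg/ml (light to dark blue), with 95% intervals from edgeR; filled points had adjusted p under 0.05. KRT7 rises to 0.82 at SPARC 5, KRT18 reaches −0.17 with a narrow interval, and the intervals of KRT19 are the widest.

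Across all 4 groups at once, the edgeR quasi-likelihood test for any difference called KRT7 (adjusted p = 1.16e-27) and KRT18 (adjusted p = 2.46e-07) but not KRT8 (0.0870) or KRT19 (0.538), while it called 11% of all genes. Per dose step KRT18 fell by 0.05 ± 0.01 (adjusted p = 4.08e-05), and the trends of KRT8 (−0.08 ± 0.03, adjusted p = 0.0518) and KRT19 (−0.00474 ± 0.101, adjusted p = 0.987) were not called. The fall of KRT18 was not even over the steps. It differed by −0.03 ± 0.02 from control to SPARC 0.05, by 0.01 ± 0.02 on to SPARC 0.5 and by −0.14 ± 0.02 on to SPARC 5.

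Because type II and type I keratins pair with each other, the balance between members was compared within each library, which removes the scaling. KRT7 over KRT18 had a log2 ratio of 2.02 ± 0.04 at SPARC 5, against 1.03 ± 0.05 in control, so KRT7 gained 0.99 on KRT18, a 1.99-fold shift (exact 2-sided permutation test of 5 against 5 samples, p = 0.00794, the smallest it can give). At SPARC 0.5 the ratio was 1.26 ± 0.03, higher than in control by 0.23, again without overlap and with the same p. At SPARC 0.05 it was 1.07 ± 0.05, higher than in control by 0.04 in log2 (exact permutation p = 0.246). KRT7 over KRT8 moved alike, by 1.07 at SPARC 5 and 0.26 at SPARC 0.5. KRT7 over KRT19 moved by 0.87 and 0.68. All 6 of these differences had an adjusted p of 0.0238 over the 18 permutation tests of ratios made. The ratio over KRT19 rests on 13 to 43 counts a library, and at SPARC 0.5 it includes the uncalled −0.49 ± 0.33 of KRT19 itself. At SPARC 0.05 it was also higher than in control, by 0.54, where the log2 fold change of KRT7 was 0.01.

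By contrast KRT8 over KRT18, the ratio of the classic pair, was −4.78 ± 0.18 at SPARC 5 and −4.71 ± 0.07 in control, a difference of −0.08 that did not pass (exact permutation p = 0.429, adjusted p = 0.551) and was 0.04 with pseudogenes added. None of the other ratios without KRT7 passed at any dose, with adjusted p between 0.0714 and 0.647 at SPARC 0.5. Summed CPM of both type II members over both type I members averaged 2.07 ± 0.0656 in the control libraries, 2.13 ± 0.0747 in those of SPARC 0.05, 2.42 ± 0.0559 in those of SPARC 0.5 and 4.08 ± 0.129 in those of SPARC 5. KRT7 made up 79.6 ± 0.441% of the summed CPM of the 4 members at SPARC 5, against 66.2 ± 0.785% in control. The 4 members together took 5.66 ± 0.278% of all keratin counts in the control libraries, 5.78 ± 0.129% in those of SPARC 0.05, 6.20 ± 0.235% in those of SPARC 0.5 and 7.79 ± 0.219% in those of SPARC 5.

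**Figure D4:**
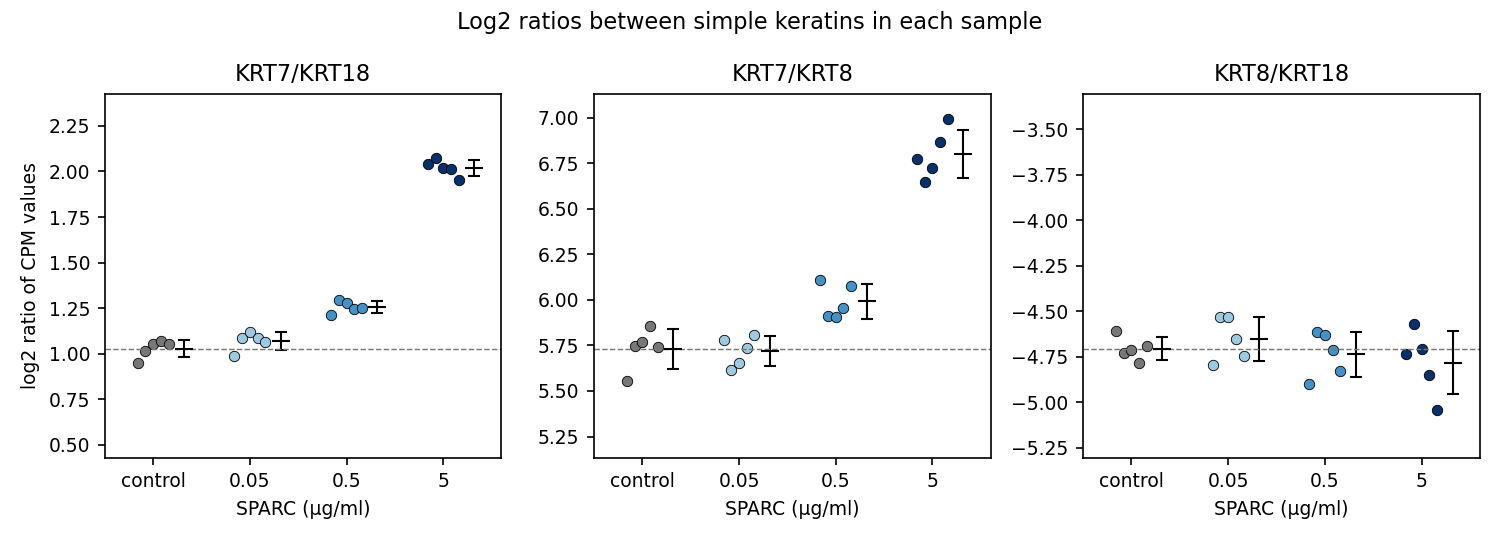
Log2 ratios of CPM for KRT7/KRT18, KRT7/KRT8 and KRT8/KRT18 in each sample by SPARC dose in µg/ml; points are samples, bars mean ± SD of 5 and the dashed line the control mean, on axes of equal length. KRT7/KRT18 lies near 2.02 at SPARC 5 and 1.03 in control, while KRT8/KRT18 stays within the spread of its groups.

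Pseudogene counts were read beside their genes. The summed KRT8 pseudogenes had more counts than KRT8 itself, 17.4 ± 1.52 CPM at SPARC 5 and 18.1 ± 1.47 CPM in control, and took 58.2% to 70.1% of the counts of gene and pseudogenes together. The share was 63.8 ± 3.73% at SPARC 5 and 60.8 ± 1.68% in control. KRT8P12, KRT8P33 and KRT8P39 held the most, with 5477, 2686 and 1559 counts over the 20 libraries. Of the KRT8 pseudogenes 8 were tested at SPARC 5 against control, and 0 were called by edgeR, beside 11.6% of all genes tested. The median log2 fold change of these 8 was −0.13. The 3 named had SEs of 0.11 to 0.20, so a change of the size seen in KRT8 could have been missed in them. The KRT18 pseudogenes summed to 23.2 ± 0.997 CPM at SPARC 5 and 25.9 ± 0.435 CPM in control, 6.89% to 8.31% of the joint counts. The 3 of them with the most counts were KRT18P11 (1933), KRT18P17 (1627) and KRT18P31 (1440). Of the 29 tested at SPARC 5 against control 0 were called, and their median log2 fold change was −0.26, against −0.01 over all genes. KRT18P11, KRT18P17 and KRT18P31 had SEs of 0.17 to 0.19, so a change of the size seen in KRT18 could have been missed in them. With pseudogenes added KRT18 had a log2 fold change of −0.16 at SPARC 5 (adjusted p = 1.02e-07). The KRT19 pseudogenes held 5 counts in all. Whether reads were split between genes and copies is not given in the sources used here and was not tested.

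**Figure D5:**
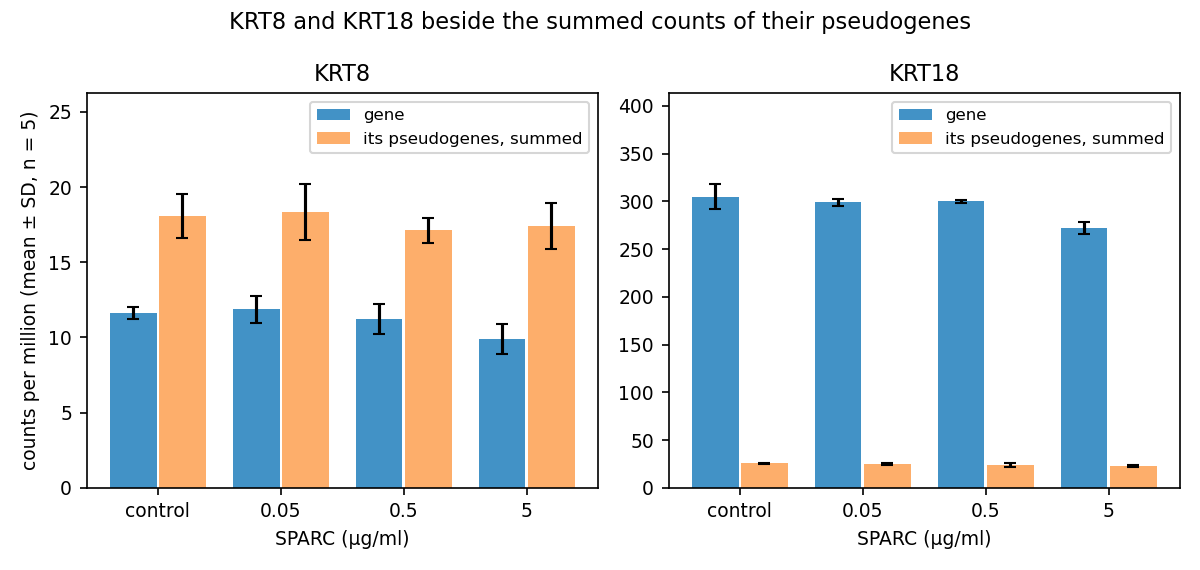
Mean CPM (± SD, n = 5) of KRT8 (left) and KRT18 (right) in blue and of their summed pseudogenes in orange, by SPARC dose in µg/ml, axes from 0. The pseudogenes exceed KRT8 in every group and stay far below KRT18.

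KRT7 has a different neighbour to set beside it, the antisense gene KRT7-AS, which shares 221 bases with its main transcript on the other strand. KRT7-AS rose at SPARC 5 to 14.3 ± 1.85 CPM, against 10.4 ± 1.43 CPM in control (log2 fold change 0.47 ± 0.09, adjusted p = 2.86e-05). KRT87P, a keratin pseudogene that shares 32 exon bases with other KRT7 transcripts on the opposite strand, rose as well, to 3.75 ± 0.376 CPM, against 2.44 ± 0.491 CPM (0.62 ± 0.17, adjusted p = 0.00581). KRT86, which overlaps KRT7 on the same strand without shared exon bases, was not called at SPARC 5 (0.02 ± 0.36, adjusted p = 0.986). At SPARC 0.5, where KRT7 was called, KRT7-AS (−0.09 ± 0.09, adjusted p = 0.749) and KRT87P (−0.00273 ± 0.170, adjusted p = 0.997) were not. Since the strand setting of the counting is not given, reads of KRT7 and of these neighbours cannot be told apart in the shared bases. KRT7-AS had 1.30 ± 0.149% of the counts of KRT7 at SPARC 5 and 1.67 ± 0.277% in control.

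Other keratins were set beside the members, where 11.6% of all genes tested were called at SPARC 5 (7.04% higher, 4.58% lower). Of 4 further keratins outside the basal, wound and stratified list, KRT20, KRT23 and KRT222 had too few counts to test. The 4th, KRT80, rose at SPARC 5 (9.90 CPM, against 7.91 in control, log2 fold change 0.32 ± 0.11, adjusted p = 0.0451). Of 22 basal, wound and stratified keratins, 17 were tested at SPARC 5, 3 rose, 1 fell and 13 did not pass, with a median log2 fold change of 0.01, against −0.01 over all genes. KRT14 (0.49 ± 0.06), the basal partner of K5, and the wound keratins KRT6A (0.41 ± 0.05) and KRT6C (0.31 ± 0.04) rose, and KRT15 (−1.11 ± 0.14), a keratin of basal and limbal cells, fell. KRT5 was not called (SE of the log2 fold change 0.02, adjusted p = 0.998). At SPARC 0.5 and SPARC 0.05 none of the 17 was called by edgeR. Of 15 other intermediate filament genes 10 were tested, and NES, a filament of progenitor cells, was called higher at SPARC 5 at 4 to 40 counts a library. VIM, the mesenchymal filament, had 2 to 21 counts, and its log2 fold change of 1.44 ± 0.58 at SPARC 5 was not called (edgeR, adjusted p = 0.0992).

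For the next 3 lists the same shares of all genes apply, 11.6% called at SPARC 5 (7.04% higher, 4.58% lower) and 2.25% at SPARC 0.5. Among 26 keratin linkers and binding partners 25 were tested at SPARC 5, 4 rose and 5 fell, with a median of 0.02. The desmosomal anchor DSP (0.19 ± 0.02) and the 14-3-3 genes YWHAZ (0.20 ± 0.02) and SFN (0.18 ± 0.02) rose, and the cell envelope linker PPL fell by 0.30 on the log2 scale. DSP and YWHAZ were also the 2 members called at SPARC 0.5 (0.08 and 0.10). Of 36 transcription factors known to act on simple keratin genes 31 were tested, 7 rose, 3 fell and 21 did not pass, with a median of 0.02. JUN (0.32 ± 0.04), ETS1 (0.55 ± 0.05) and SNAI2 (0.41 ± 0.05) rose and FOSL2 fell by 0.21, and ETS1 alone was called at SPARC 0.5 (0.20). GRHL2 (−0.02 ± 0.03), an activator of epithelial genes, was not called. Of 14 genes of keratin turnover all were tested, 1 rose, 2 fell and 11 did not pass. UBE2H rose (0.12 ± 0.03) and SQSTM1 fell (−0.19 ± 0.03), and the genes that did not pass held caspases 3, 6 and 7.

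Markers that could move with the members were summed per library, beside 11.6% of all genes called at SPARC 5 (7.04% higher, 4.58% lower). The 5 tested conjunctival and goblet genes, whose lineage K7 and K19 mark, had no call at any dose, and the 7 listed summed to 3.69 to 4.35 CPM at SPARC 5 and 3.29 to 5.24 CPM in control. The corneal list summed to 677 to 709 CPM at SPARC 5 and 712 to 796 CPM in control, most of it TKT, and 3 of its 5 tested genes fell: ALDH3A1 (−0.85 ± 0.12), CLU (−0.52 ± 0.08) and TKT (−0.12 ± 0.02). The general epithelial list summed to 473 to 503 CPM at SPARC 5 and 488 to 518 CPM in control, with EPCAM called lower (−0.32 ± 0.03). The limbal and basal list summed to 14915 to 15485 CPM at SPARC 5 and 14059 to 14869 CPM in control, with 4 of 6 genes called higher and 1 lower, some of them keratins named above. Stromal and fibroblast genes summed to 5.96 to 9.65 CPM at SPARC 5 and 5.44 to 7.99 CPM in control. In that list KERA was at 0 in 20 of 20 libraries and LUM in 19, while COL1A1 had 114 to 257 counts and THY1 12 to 79. Among melanocyte genes TYR was at 0 in 19 libraries, MLANA had 22 to 90 counts and PMEL 40 to 81. Of the endothelial genes CDH5 had 0 to 5 counts and PECAM1 7 to 43, and of the immune genes PTPRC had 0 to 7 and CD68 0 to 19. Endothelial, melanocyte and immune lists stayed under 4 CPM in every library of both groups, and none of their tested genes was called by edgeR. The part of these markers in the changes of KRT7 and KRT18 was not tested.

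The genes whose log2 CPM followed each member most closely over the 20 libraries were listed as a description, among 9623 other genes averaging 10 CPM or more (9624 for KRT19). The libraries share doses, so every gene that follows dose scores high. For KRT7 they were PMEPA1, a TGF-beta feedback gene (Pearson r 0.987), TGFBI (0.986), TUBA4A (0.985), ITGB6 (0.985) and PRSS23 (0.982), against a median absolute r of 0.318. GSR, glutathione reductase (−0.956), CLDN1 (−0.947) and SEMA3A (−0.941) ran opposite. For KRT18 they were STK39 (0.931), SCNN1A (0.920), GLDC (0.919), FTL (0.912) and GSR (0.910), and the attachment genes ITGA6 (−0.936), COL17A1 (−0.934) and LAMA3 (−0.927) ran opposite. GSR thus stood among the nearest genes to KRT18 and was the most opposed to KRT7.

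For KRT8 the nearest were SNHG32 (0.861), AP000873.2 (0.828), ARRDC1-AS1 (0.811), PSMG4 (0.791) and LRP5 (0.786), and the most opposed MCFD2 (−0.856), KDM1A (−0.825) and GNAS (−0.823). For KRT19 they were APBA3 (0.782), RASSF7 (0.770), GAPDHP65 (0.717), DCTN3 (0.708) and OSBPL7 (0.708), and XPO4 (−0.730), DCLRE1A (−0.700) and CUL2 (−0.679) ran opposite. The likeness was lowest for KRT19, the member with the fewest counts, whose median absolute r was 0.175.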

How the data were processed

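Reads of 20 samples were processed by the authors. The submitters' processing notes name, without roles, STAR 2.7.9a, Salmon 1.5.2 and featureCounts 2.0.3 of Subread, besides bcl2fastq, limma and edgeR, with GRCh38 as the build. The sources used here do not state strand or multimapping settings. The deposited table holds whole read counts per Ensembl gene. Of values from 1 to 4 in it, 73.1% were even, and whether each mate of a pair was counted is not stated. The authors' comparison tables hold log2 fold changes and a p-value with its adjusted p-value per gene, per the file headers. Their other score columns (test statistic, log odds, signed fold), computed by the authors per the file headers, were not used.

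Identifiers on more than 1 entry (168, on 368 entries of 60871) were kept once. Genes were filtered with filterByExpr (minimum count 10), scaled by trimmed mean of M values and fitted with edgeR 4.0.16 in R 4.3.3 as group means of all 20 samples, with robust quasi-likelihood F-tests and Benjamini-Hochberg adjustment over 22938 genes. Log2 CPM used a prior count of 2. Ratios were compared by exact 2-sided permutation, adjusted over 18 tests. Standard errors and intervals come from the edgeR fit, and PCR copies cannot be told from molecules, so counting errors cover counting only. In 40 pairs of replicates the chi-square per gene was 4.09 to 9.55, above counting noise, so no library was taken for a repeat of another. The edgeR step was tested on simulated counts.

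Totals were 31955358 to 50112286 counts a library. In KRT8, KRT18 and KRT19 the spread between libraries exceeded counting error in 3 of 4 groups. In KRT18 it was below counting error at SPARC 0.5 (0.620% against 0.904% of the mean). Alternatives were DESeq2 1.42.0 and limma 3.58.1 (voom), other scalings, no filter, the replicate block, only the groups compared, pseudogenes added, a prior count of 0.5 and each library left out. Chosen after seeing the data were a GC and length correction and leaving out both SPARC 5 libraries that stand apart. The members and gene lists were chosen with earlier results of these data known. Beside the 4 members, the genes named are the 3 pseudogenes with the most counts, up to 4 of each list by smallest p at SPARC 5, genes that define a cell type, and the 5 most and 3 least alike by Pearson correlation. VIM, GRHL2, the caspases, KRT86 and KRT87P were named after their values were seen. Sequences and positions are from GENCODE 29. The KRT8 sequence comparison and 1 gene of a list are not reported here.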

Additional observations from a re-analysis of the deposited data

Results flagged for a closer look

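KRT7 had 597 CPM in SPARC 0.05 replicate 1, while the other 4 samples of that dose had 631 to 638 CPM. It stood out as a sample far from the others of its group: the gap to the nearest was 0.843 of the range of the group, above Dixon's limit of 0.71 for 5 samples. Of 44 groups looked at this was the 1 found, and chance flags about 1 in 20 groups. Without this library the log2 fold change of KRT7 at SPARC 0.05 against control was 0.03, and it was not called (adjusted p = 0.871, edgeR).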

How the results depend on the processing

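KRT7 at SPARC 5 and SPARC 0.5 and KRT18 at SPARC 5 against control kept direction and call under every alternative run and with each library left out. With 1 library left out their log2 fold changes were 0.78 to 0.84, 0.17 to 0.22 and −0.19 to −0.15. Other alternatives went beyond these ranges. At SPARC 5 KRT7 was 0.87 and KRT18 −0.13 with GC and length corrected, and KRT18 was −0.21 with library sizes only. No called value changed sign. Of values not called, 32 did, 24 of them with 1 library left out and 8 under other alternatives, and 20 of the 32 involve KRT19; among the 8 were KRT18 at SPARC 0.5 (0.01) and SPARC 0.05 (0.00192) and KRT19 at SPARC 5 (0.03) against control with GC and length corrected, and KRT8/KRT18 at SPARC 5 (0.04) with pseudogenes added. KRT8 at SPARC 5 against control passed with library sizes only (−0.29), DESeq2 (−0.24) and the replicate block (−0.24, adjusted p = 0.0426), and with libraries left out was −0.28 to −0.19. Its trend passed with library sizes only (−0.0941), no filter (−0.0796) and the replicate block (−0.0795), and was −0.0872 to −0.0606 with libraries left out, passing without control replicate 4 or 5, SPARC 0.5 replicate 2, 3 or 4, or SPARC 5 replicate 2. Its adjusted p for any difference was 0.0222 with library sizes only and 0.0441 (without SPARC 5 replicate 2) to 0.340 with libraries left out. Against SPARC 0.05 its call at SPARC 5 was lost with pseudogenes added (−0.15) and without both SPARC 5 libraries that stand apart (−0.25), and ranged from −0.31 to −0.22 with 1 left out.

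Genes called at SPARC 0.5 against SPARC 0.05 (41) were 70 with no filter, 66 with the replicate block, 80 with only the groups compared, 83 with DESeq2, 68 with GC and length corrected, and 15 to 52 with libraries left out (15 to 25 without SPARC 0.05 replicate 1, 2, 3 or 5 or SPARC 0.5 replicate 4 or 5). SPARC 0.5 against control (517) gave 802 with DESeq2 and 267 to 608 (267 without SPARC 0.5 replicate 4, 333 without control replicate 3). SPARC 0.05 against control (61) gave 206 with DESeq2, 11 with GC and length corrected, and 22 to 82 (22 to 39 without control replicate 2, 3 or 4 or SPARC 0.05 replicate 2, 3 or 5). The cause of these changes was not tested.

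Ratios over KRT19 depended on single libraries: at SPARC 0.05 they were 0.37 to 0.67 for KRT7, 0.36 to 0.69 for KRT8 and 0.34 to 0.63 for KRT18, passing without SPARC 0.05 replicate 4, and at SPARC 0.5 they were 0.34 to 0.53 for KRT8 and 0.35 to 0.53 for KRT18, passing without SPARC 0.5 replicate 5. Correlations of deviations between samples that share a replicate number were all under 0.1 (−0.0347 to 0.0440), so the numbers were not taken as pairs. Yet 11 of 20 samples correlated best with their own number out of 5, where picking at random would give 4, a hint from the data and not from the design. The balance of calls with library sizes only was 165 higher and 412 lower at SPARC 0.5 (312 and 205), 33 and 36 at SPARC 0.05 (43 and 18) and 21 and 14 at SPARC 0.5 over SPARC 0.05 (36 and 5). Depth limits KRT19 most, at 13 to 43 counts.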
